A study of Mus musculus with 60 samples.

Results

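Depletion of the DNA polymerase epsilon subunit POLE4 for 96 h in mouse embryonic stem cells (mESCs) with wild-type MCM2 was examined in 6 of the 60 RNA libraries of the series, 3 of depleted cells (dPOLE4) and 3 of control cells (Ctrl). All 6 came from a single E14JU line of genotype POLE4-dTAG, in which the endogenous protein carries a degron tag, kept in serum with LIF and given no retinoic acid. The dPOLE4 cells received 1 µM dTAG, the compound that sends the tagged protein to the proteasome, and the Ctrl cells received the solvent DMSO, so both groups carry the tag. The treatment field of the labels reads untreated for these libraries, and the groups were taken from the sample titles. Total RNA was depleted of ribosomal RNA, made into strand-specific libraries and counted per gene and per repeat subfamily. The replicates, 3 a group, are biological replicates in the methods of the study, and libraries with the same replicate number were treated as pairs.

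POLE4 pairs with POLE3 through histone folds, and the pair belongs to the polymerase that copies the leading strand. Behind the fork it helps to hand parental histones H3 and H4, with the marks they carry, to the leading strand, while MCM2 helps to hand them to the lagging strand. In serum with LIF, mESCs are a mixture in which most cells express naive pluripotency genes, some move towards the formative state that precedes lineage choice, and a rare fraction passes through a state in which genes of the 2-cell embryo, such as the Zscan4 cluster, are transcribed.

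Total counts ran from 15647026 to 23598266 per library, repeat subfamilies took 7.79 to 8.39% of the counts, and no library stood apart in these measures. Naive pluripotency genes were high in both groups, with Pou5f1 at 797 ± 23.7 CPM (counts scaled to the library total, mean ± SD, n = 3) in Ctrl and 777 ± 23.4 CPM in dPOLE4, and Nanog at 472 ± 29.7 and 529.6 ± 25.7 CPM. Of the 16 trophoblast markers, 2 had no count in any library, and the summed level of the 13 tested ones overlapped between the groups, 216.9 to 279.8 CPM in Ctrl and 225.4 to 271.9 CPM in dPOLE4. Of the 13 tested trophoblast markers edgeR called 0, but 8 had an unadjusted p below 0.05 and 4 an adjusted p below 0.01, in both directions: Gata3 (log2 fold change 0.45) and Gata2 (0.40) were higher, and Krt19 (-0.44) and Krt8 (-0.30) lower. The part of such cells in the results was not tested. The sum of the 10 tested of 14 fibroblast markers was 254 to 416.2 CPM in Ctrl and 257.9 to 427.9 CPM in dPOLE4, carried mainly by Vim (201 CPM in Ctrl and 211 CPM in dPOLE4). Of the 10 tested fibroblast markers 0 were called, 6 were higher and 4 lower, with Col1a1 at 26.8 and 30.7 CPM, Acta2 at 10.7 and 12.4 CPM, Tagln at 32.1 and 25.7 CPM and Col3a1 at 0.64 and 0.46 CPM. Pole4 RNA does not check the depletion, since dTAG acts on the protein, and it was 51.7 ± 4.65 CPM in Ctrl and 48.0 ± 5.05 CPM in dPOLE4 (log2 fold change -0.11, adjusted p = 0.37, edgeR). Mcm2 was 523 ± 14.5 and 525 ± 6.68 CPM. In bulk RNA, fewer cells of a type and less RNA per cell cannot be told apart, which holds for every level given here.

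At 96 h, 142 of 17580 tested features (0.808%) were differentially expressed, 79 higher (0.449%) and 63 lower (0.358%) in dPOLE4, by edgeR's quasi-likelihood test with the replicate number as a block, an adjusted p below 0.01 and a log2 fold change beyond 0.58. The lower genes included Lef1, a DNA-binding partner of beta-catenin, the formative genes Pou3f1 and Pim2, the Wnt target genes Sp5 and T, 3 guanylate-binding protein genes, the growth factor binding protein gene Igfbp3 and the mitochondrial 16S rRNA mt-Rnr2. Genes of the 2-cell-like state, Pramel6 and Pramel7, the meiotic gene Stra8 and the calcium channel gene Cacna1s were among those higher. Of the 79 higher features, 60 were protein coding, 9 were pseudogenes and 5 were small RNA genes. Among the 63 lower features were 45 protein-coding genes, 6 pseudogenes, 9 small RNA genes and 3 mitochondrial genes. Changes were of modest size, with a median log2 fold change of 0.79 over the higher and -0.94 over the lower features, and 21 and 25 of them went past 2-fold. No repeat subfamily of 860 tested was called by edgeR or by DESeq2, and 88 had an unadjusted p below 0.05 in edgeR, beside 22.9% of all features.

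The call rests on the pairing. Without the replicate block edgeR called 0 features, with 2164 at an unadjusted p below 0.05, and DESeq2 called 32 with the block and 25 without it. The fold changes themselves kept their sign for all 142 features under these 3 alternatives. With the block DESeq2 called 3 formative, 2 LEF/TCF and Wnt and 2 guanylate-binding protein genes of the lists below. Of the Pramel family DESeq2 called 1 gene, with or without the block, where edgeR called 2. Of the Zscan4 family it called 3 with the block and 0 without it, where edgeR called 6. It called 0 mesoderm, antigen presentation, germline, Usp17l, mitochondrial transfer RNA or replication-dependent histone genes, with or without the block. Of the 142 features 31 were still called by DESeq2 with the block. T, Psmb8, H2-Q4, Hist1h2ba, Dpep3, Usp17le and mt-Ti were among those called by edgeR and not by DESeq2.

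**Figure D1:**
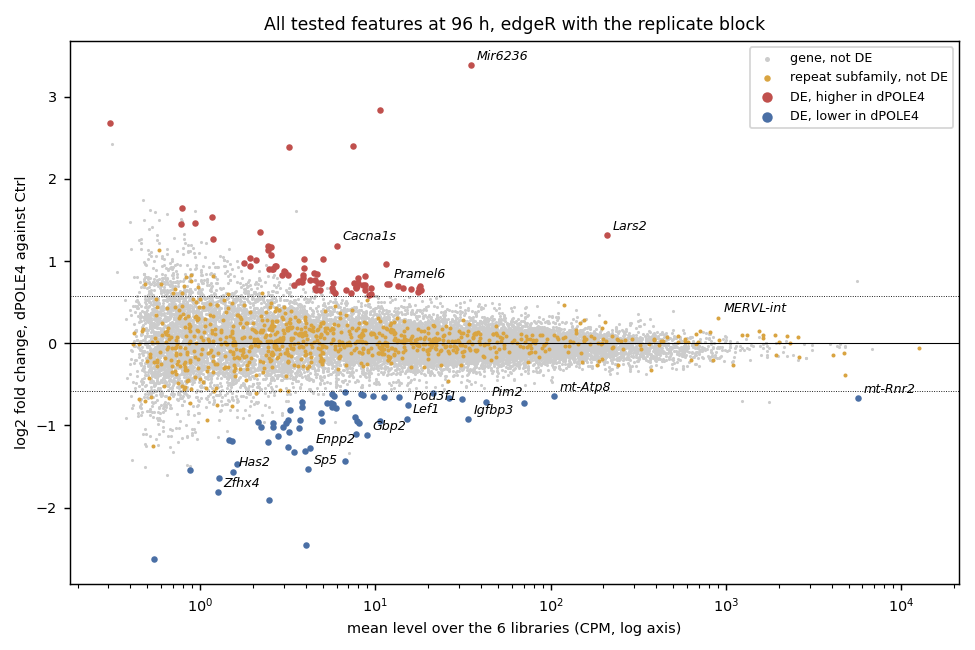
Log2 fold change of dPOLE4 over Ctrl at 96 h (vertical axis) against the mean level in CPM over the 6 libraries (horizontal log axis) for the 17580 tested features, with the 79 higher features in red, the 63 lower in blue, repeat subfamilies in yellow, other genes in grey and dotted lines at the fold threshold of 0.58. Most red and blue points lie at low to middle levels, with mt-Rnr2 far to the right of the other lower genes.

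The promoters of Lef1, Sp5 and T are shown first, since Lef1 encodes a LEF/TCF factor and Sp5 and T are known Wnt target genes, and a motif of 6 letters, CTTTGA, lies at the core of the sequence bound by LEF and TCF factors. Each run below is the 250 bases before the start of the gene in the RefSeq promoter table (GRCm38.p6, plus strand), and capitals mark a CTTTGA match read on either strand. The Sp5 run is chr2:70474673-70474922 and holds 2 matches, beginning 204 and 104 bases before the start. The T run, chr17:8434173-8434422, holds 1 on the minus strand, beginning 234 bases before the start, and the Lef1 run, chr3:131110073-131110322, holds 0. The Lef1 run ends before the start of the gene as annotated here (131110471), so the bases next to that start were not searched.
Sp5: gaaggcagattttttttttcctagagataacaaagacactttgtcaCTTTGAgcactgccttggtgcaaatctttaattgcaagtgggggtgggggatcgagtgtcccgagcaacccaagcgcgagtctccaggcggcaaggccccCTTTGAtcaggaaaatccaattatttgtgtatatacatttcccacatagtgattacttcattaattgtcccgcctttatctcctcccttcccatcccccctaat
T: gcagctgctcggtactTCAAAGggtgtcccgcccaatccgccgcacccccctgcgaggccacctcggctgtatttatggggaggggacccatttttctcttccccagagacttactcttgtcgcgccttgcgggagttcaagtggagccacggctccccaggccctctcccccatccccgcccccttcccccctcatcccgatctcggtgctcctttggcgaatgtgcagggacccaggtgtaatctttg
Lef1: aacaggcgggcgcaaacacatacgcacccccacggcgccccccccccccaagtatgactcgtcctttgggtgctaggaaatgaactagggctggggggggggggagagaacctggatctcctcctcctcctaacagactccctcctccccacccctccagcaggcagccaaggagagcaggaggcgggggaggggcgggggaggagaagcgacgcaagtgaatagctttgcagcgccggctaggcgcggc
The motif is common: 3791 of 27025 promoters of the table (14.0%) hold it. It was found in 7 of the 30 lower genes with a promoter in the table (23.3%) and in 2 of the 47 higher ones (4.26%), beside 10.8% of the 11365 tested genes. The motif was chosen because Lef1, Sp5 and T were among the lower genes, and Sp5 and T are counted in the 7. These shares therefore describe the lists and test no link to LEF/TCF factors. A match is a description of letters and not of binding.

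Genes of the formative state were lower as a group. Of the 22 tested formative genes, 19 were lower and 3 were higher, with a median log2 fold change of -0.19, beside 0.00 over all tested features, of which 50.3% were higher and 49.7% lower. The median was negative in each of the 3 pairs (-0.19, -0.30 and -0.22). The list was chosen with earlier results of these libraries known and is not independent evidence of its direction. The 3 members that passed both thresholds were Lef1, Pou3f1 and Pim2, all lower.

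Lef1 (chromosome 3, 131110471 to 131224356, plus strand) was 16.2, 21.4 and 21.9 CPM in Ctrl and 8.83, 11.5 and 11.1 CPM in dPOLE4. Every dPOLE4 library lay below every Ctrl library, and the log2 fold change was -0.92 ± 0.09 (SE, adjusted p = 3.39e-07, edgeR). Pou3f1, which encodes the POU factor OCT6 and rises as cells leave the naive state, was 16, 23.5 and 18.2 CPM in Ctrl and 8.26, 11.6 and 14.2 CPM in dPOLE4. These groups did not overlap either, although the gap in the third pair was the smallest of the 3 (log2 fold change -0.76 ± 0.11, adjusted p = 5.16e-05, edgeR). Pim2, a serine/threonine kinase gene, went from 39.1, 55.8 and 64.5 CPM in Ctrl to 26.6, 32.4 and 37.9 CPM in dPOLE4, with no overlap between the groups (-0.71 ± 0.06, adjusted p = 2.25e-07). Of the 17580 tested features, 17.5% had groups that did not overlap.

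Other formative genes were lower by less. Dnmt3b, a de novo DNA methyltransferase, was 393 ± 18.1 CPM in Ctrl and 304 ± 15.7 CPM in dPOLE4, and Zic2, a zinc finger factor gene, was 55.4 ± 7.65 and 43.8 ± 6.60 CPM. Both had an adjusted p below 0.01 and stayed under the fold threshold, at log2 fold changes of -0.37 and -0.34. Otx2, a homeobox gene that drives the exit from the naive state, was 22.1 ± 1.36 CPM in Ctrl and 17.8 ± 1.53 CPM in dPOLE4 (-0.31, adjusted p = 0.0123, edgeR). Fgf5, the classical marker of the post-implantation epiblast, was near the detection limit at 0.91 ± 0.28 and 0.44 ± 0.09 CPM (-1.04, adjusted p = 0.0765).

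Naive pluripotency genes showed no such shift. Of 24 tested, 16 were higher and 8 lower, 0 were called, 9 had an unadjusted p below 0.05 in edgeR, and the median log2 fold change was 0.02. Tbx3, a T-box factor gene of the naive network, reached the largest value, 279 ± 58.4 CPM in Ctrl and 353 ± 45.2 CPM in dPOLE4 (0.35, adjusted p = 0.000113, edgeR), under the fold threshold. Pecam1, a surface adhesion gene of mESCs, followed at 0.27. In the opposite direction Dppa3, a germline and naive marker also called Stella, was 35.1 ± 2.68 CPM in Ctrl and 28.2 ± 1.30 CPM in dPOLE4 (-0.31).

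Among the 26 tested LEF/TCF factors, Wnt ligands and Wnt target genes, 8 were higher and 18 lower, with a median of -0.09, and the 2 called were Lef1 and Sp5. Sp5, a zinc finger factor gene directly induced by Wnt, was 8.87, 4.54 and 5.25 CPM in Ctrl and 1.52, 1.51 and 3.17 CPM in dPOLE4. The groups did not overlap, and the log2 fold change was -1.53 ± 0.22 (adjusted p = 5.30e-05, edgeR). The log2 differences of its 3 pairs were -2.46, -1.52 and -0.71. The other DNA-binding partners of beta-catenin were near their control level: Tcf7, Tcf7l1 and Tcf7l2 had log2 fold changes of -0.05, 0.02 and -0.08. Axin2, the feedback inhibitor most often read as a Wnt target, was 38.4 ± 1.39 CPM in Ctrl and 34.9 ± 2.34 CPM in dPOLE4 (-0.14, adjusted p = 0.222, edgeR).

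T, the Brachyury gene of the primitive streak and a Wnt target in mESCs, was 6.21, 5.14 and 3.51 CPM in Ctrl and 2.92, 2.13 and 2.16 CPM in dPOLE4. Its groups did not overlap (-1.03 ± 0.18, adjusted p = 0.000449, edgeR), and it was the only one of 13 tested mesoderm genes that was called. DESeq2 called 0 mesoderm genes, with or without the replicate block. The mesoderm list had a median of -0.03, with 6 genes higher and 7 lower. Wnt5a, a non-canonical Wnt ligand gene outside the list and named after its values were seen, was 5.57, 4.93 and 2.58 CPM in Ctrl and 3.11, 1.99 and 1.16 CPM in dPOLE4. It fell within each pair although the groups overlapped (-1.08 ± 0.19, adjusted p = 0.000518).

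**Figure D2:**
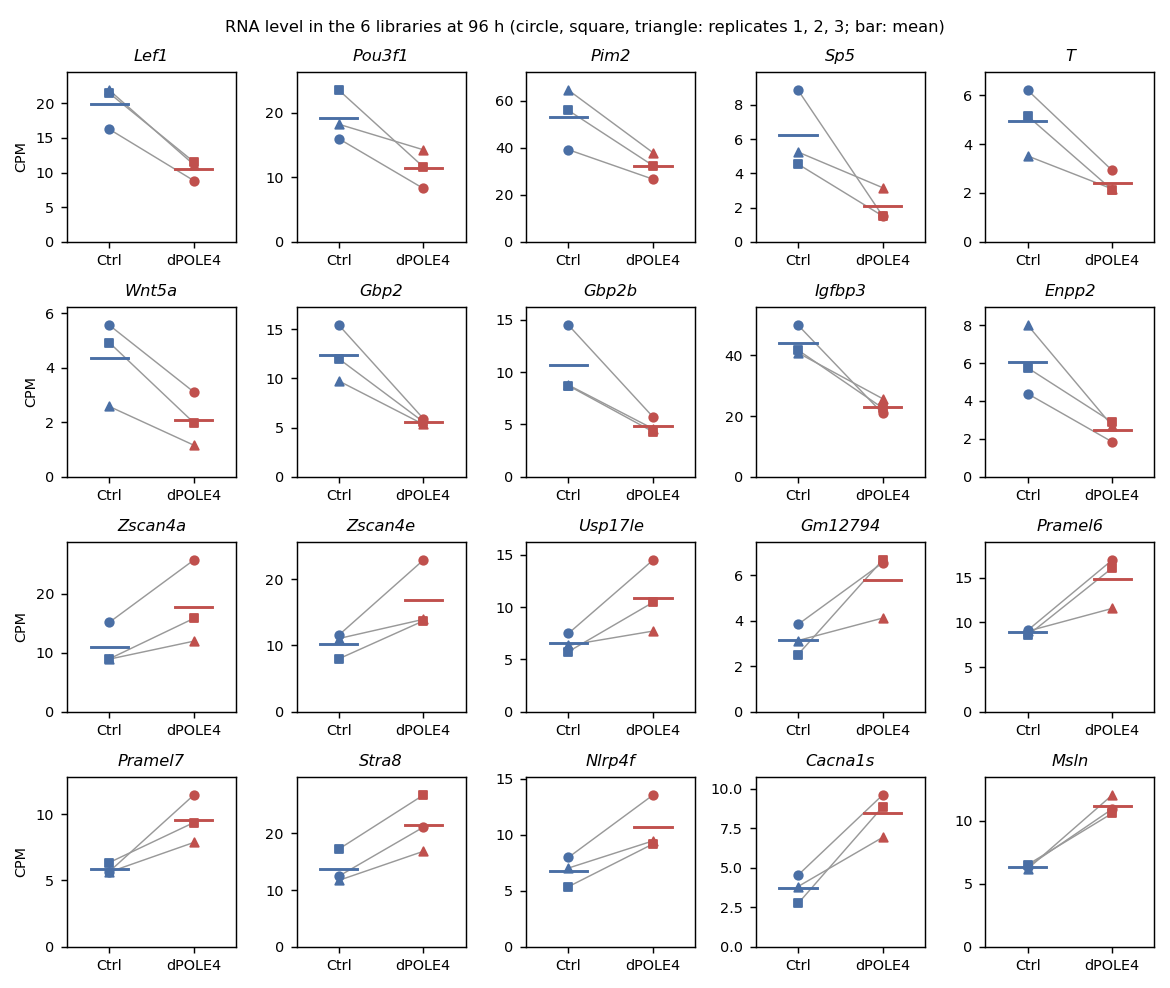
Level in CPM of 20 named genes (one panel each, vertical axis from 0) in the 3 Ctrl and 3 dPOLE4 libraries of 96 h, with circles, squares and triangles for replicates 1, 2 and 3, lines joining libraries of the same replicate number and bars at the group means. Lef1 falls from 16.2 to 21.9 CPM in Ctrl to 8.83 to 11.5 CPM in dPOLE4, while for Zscan4a the first dPOLE4 library, at 25.7 CPM, lies far above the third, at 12 CPM.

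Guanylate-binding proteins are large GTPases that interferon induces and that attack the vacuoles of intracellular pathogens. The family was listed after its members were seen among the lower genes, so its counts describe it only. All 6 tested members were lower in dPOLE4, 3 of them called, with a median log2 fold change of -1.03. The summed level of these 6 ran from 28.2 to 40.5 CPM in Ctrl and from 14.9 to 17.8 CPM in dPOLE4.

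The promoters of the 3 called members are shown because the core of the interferon-stimulated response element, GAAA repeated after any 2 bases, is rare: it occurs on either strand in 823 of 27025 promoters (3.05%) and in 2.38% of the tested genes. Capitals mark it in the 250 bases before the RefSeq start (GRCm38.p6, plus strand), where each match lies on the minus strand. The Gbp2 match, in chr3:142620413-142620662, begins 59 bases before the start, that of Gbp2b, in chr3:142594597-142594846, begins 137 bases before it, and Gbp3, in chr3:142559794-142560043, has 2 overlapping matches at 45 and 39 bases.
Gbp2: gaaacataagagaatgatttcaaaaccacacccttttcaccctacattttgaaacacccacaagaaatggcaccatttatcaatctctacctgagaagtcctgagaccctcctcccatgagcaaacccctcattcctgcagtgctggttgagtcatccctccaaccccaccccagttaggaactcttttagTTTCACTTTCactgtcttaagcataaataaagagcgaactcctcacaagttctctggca
Gbp2b: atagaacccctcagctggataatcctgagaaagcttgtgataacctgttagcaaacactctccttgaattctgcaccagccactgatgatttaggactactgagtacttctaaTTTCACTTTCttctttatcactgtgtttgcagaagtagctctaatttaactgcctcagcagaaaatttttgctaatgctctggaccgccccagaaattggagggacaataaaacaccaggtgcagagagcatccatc
Gbp3: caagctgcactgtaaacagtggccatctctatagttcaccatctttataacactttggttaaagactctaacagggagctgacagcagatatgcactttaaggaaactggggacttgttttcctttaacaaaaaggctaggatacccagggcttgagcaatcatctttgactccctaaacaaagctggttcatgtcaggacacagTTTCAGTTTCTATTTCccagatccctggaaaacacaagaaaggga
These were the only 3 of the 30 lower genes with a promoter in the table that held the motif, and 0 of the 47 higher genes did. The motif was chosen after these genes were seen to be lower, so the counts describe them only. Gbp7, which was not called, also holds a match, beginning 53 bases before its start, and Gbp4 and Gbp9 have no promoter there. Psmb8, described next, has no match in its window, chr17:34197945-34198194. That window lies inside the gene as annotated here (34197721 to 34201454), so the bases before the annotated start were not searched. The Gbp2 window ends inside its gene as annotated here (142620602 to 142638008), and its match lies just after that annotated start. The Gbp3 window also ends inside its gene (142560026 to 142573209), with both matches before the annotated start.

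Gbp2 was 15.4, 12 and 9.73 CPM in Ctrl and 5.91, 5.58 and 5.33 CPM in dPOLE4 (log2 fold change -1.12 ± 0.12, adjusted p = 1.32e-06, edgeR). Gbp2b was 14.5, 8.70 and 8.76 CPM in Ctrl and 5.72, 4.30 and 4.59 CPM in dPOLE4 (-1.10 ± 0.13, adjusted p = 3.13e-06). Gbp3 was 4.04, 3.50 and 3.85 CPM in Ctrl and 1.97, 1.51 and 1.74 CPM in dPOLE4 (-1.13 ± 0.20, adjusted p = 0.00054). None of the 3 had overlapping groups, and for Gbp2 and Gbp2b the spread in Ctrl, led by replicate 1, was wider than that in dPOLE4. The 3 genes lie side by side on chromosome 3 and resemble each other in sequence, so a share of their reads may have been divided between copies.

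Other interferon-responsive genes did not move as a group. Of 14 tested, 7 were higher and 7 lower, with a median of 0.01, and Psmb8 alone was called. Psmb8, a catalytic subunit of the immunoproteasome, was 2.12, 2.02 and 1.99 CPM in Ctrl and 0.83, 0.76 and 1.11 CPM in dPOLE4, without overlap (-1.18 ± 0.27, adjusted p = 0.00523, edgeR), and lost its call without replicate 1 or without replicate 2. Of 13 antigen presentation genes, a list also chosen after values were seen, 2 were called, Psmb8 and the class I gene H2-Q4 (4.84 ± 0.50 CPM in Ctrl, 2.81 ± 0.25 CPM in dPOLE4, -0.77), and 0 of the list were called without replicate 1. The main class I genes H2-K1 and H2-D1 had log2 fold changes of -0.01 and 0.02.

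Some of the remaining lower genes encode secreted factors, enzymes of the matrix or membrane proteins, a grouping with no list or test behind it. Igfbp3, which binds insulin-like growth factors outside the cell, was at 49.99, 41.8 and 40.8 CPM in Ctrl and 20.9, 22.7 and 25.8 CPM in dPOLE4. Its groups were wide apart (-0.92 ± 0.08, adjusted p = 2.25e-07, edgeR). Enpp2, the autotaxin gene that makes lysophosphatidic acid, was 4.38, 5.75 and 8 CPM in Ctrl and 1.84, 2.88 and 2.69 CPM in dPOLE4 (-1.28 ± 0.17, adjusted p = 2.30e-05), again without overlap. Has2, a hyaluronan synthase gene, was 2.30 ± 0.54 CPM in Ctrl and 0.78 ± 0.10 CPM in dPOLE4 (-1.56). Sema6a and Sema3e, guidance genes of the semaphorin family that were named after their values were seen, both had a log2 fold change of -0.65. Has2 and Sema6a lost their calls without replicate 3, and Sema3e without replicate 2.

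Slc39a8, a zinc and manganese importer gene, was 4.92 ± 0.74 CPM in Ctrl and 1.95 ± 0.17 CPM in dPOLE4 (log2 fold change -1.32), without overlap. Among transcription factor genes, Zfhx4 was at 2.56, 1.59 and 1.82 CPM in Ctrl and 0.51, 0.71 and 0.42 CPM in dPOLE4 (-1.81 ± 0.31, adjusted p = 0.000438, edgeR). Vrtn, which takes part in setting vertebral number, was 4.78, 5.86 and 6.31 CPM in Ctrl and 1.59, 2.60 and 2.64 CPM in dPOLE4 (-1.31 ± 0.17, adjusted p = 2.11e-05). Apart from Igfbp3 and the semaphorins, these genes lay below 10 CPM in every library.

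Nes, an intermediate filament gene of neural progenitors, was 39.1 ± 5.99 CPM in Ctrl and 26.9 ± 3.05 CPM in dPOLE4, at -0.53 under the fold threshold. Of the 9 tested neural genes edgeR called 0, with 3 at an unadjusted p below 0.05, and their median was 0.02. Endoderm genes had a median of 0.13 with 14 of 19 higher, 0 called and 7 at an unadjusted p below 0.05. The pairs disagreed, with medians of -0.107, 0.267 and 0.162 and 7, 18 and 13 of the 19 endoderm genes higher. The basement membrane collagens Col4a1 (0.51) and Col4a2 (0.49) had an adjusted p below 0.01 in that list. FGF ligands, receptors and ERK feedback genes had a median of -0.10, with 7 of 24 higher, 0 called and 9 at an unadjusted p below 0.05.

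The replication and chromatin lists of this paragraph gave no calls either. Of all 17580 tested features, 22.9% had an unadjusted p below 0.05 in edgeR and 696 an adjusted p below 0.01. The 11 tested genes of DNA polymerase epsilon and MCM2-7 had a median log2 fold change of -0.02, with 1 at an unadjusted p below 0.05 in edgeR, and the 33 Polycomb genes one of 0.03, with 5. Of 18 histone chaperone genes 5 had an unadjusted p below 0.05 and 2 an adjusted p below 0.01, with 9 higher and 9 lower. Their summed level was 6080 to 6267 CPM in Ctrl and 5336 to 5810 CPM in dPOLE4. Of 17 genes of H3K9 methylation and repeat silencing 7 had an unadjusted p below 0.05 and 2 an adjusted p below 0.01. That list had a median of -0.10 with 12 lower, and 8 of its genes had groups that did not overlap, beside 17.5% of all features. Of 11 DNA methylation genes 6 had an unadjusted p below 0.05 and 3 an adjusted p below 0.01, with 6 higher and 5 lower. The 26 tested imprinted genes were split evenly, 13 higher and 13 lower, with 10 at an unadjusted p below 0.05.

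Transcripts of the mitochondrial genome gave 3 of the lower features, mt-Rnr2, mt-Atp8 and the transfer RNA mt-Ti. The large ribosomal RNA mt-Rnr2 was 7191, 6039 and 7708 CPM in Ctrl and 5209, 4012 and 3986 CPM in dPOLE4, without overlap (-0.67 ± 0.06, adjusted p = 3.39e-07, edgeR). The small ribosomal RNA mt-Rnr1 was 434 ± 28.2 CPM in Ctrl and 364 ± 72.2 CPM in dPOLE4 (-0.27, adjusted p = 0.0248). Among 13 mitochondrial protein genes, mt-Atp8, a subunit of ATP synthase, was called at 154, 104 and 126 CPM in Ctrl and 100.2, 79.8 and 66.1 CPM in dPOLE4 (-0.64 ± 0.07), and the list median was -0.11. By pair that median was -0.194, 0.132 and -0.155, with 1, 8 and 2 of the 13 higher. All 3 calls were lost without replicate 3, where mt-Rnr2 stood at -0.53, mt-Atp8 at -0.51 and mt-Ti at -0.45. The share of all counts from the mitochondrial genome was 1.68 to 2.15% in Ctrl and 1.62 to 1.67% in dPOLE4. The libraries were depleted of ribosomal RNA, and how far depletion differed between libraries was not tested.

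Small nucleolar RNA genes, many of which guide the modification of ribosomal RNA, were lower in 189 of 227 tested, with a median of -0.24 and 3 called (10 without replicate 3), in a list formed after values were seen. The called ones include overlapping entries of the U3 gene Rnu3b2 on chromosome 11 (87471368 to 87471582 and to 87471583), so this place is counted more than once. Pairs of the second entry disagreed in direction. Of 68 replication-dependent histone genes, 40 had an unadjusted p below 0.05 in edgeR, beside 22.9% of all features. At an adjusted p below 0.01 there were 16 of them, beside 696 of all 17580 features. These histone genes were lower in 58 of 68, with a median of -0.13 and 1 called. That 1 was Hist1h2ba, a testis-type histone gene (3.74, 5.36 and 3.34 CPM in Ctrl, 1.52, 3.03 and 2.48 CPM in dPOLE4, -0.81 ± 0.19, adjusted p = 0.00679, edgeR), which lost its call without replicate 1 or replicate 2. Both groups of RNA are short or lack a poly(A) tail, and the part that recovery of such RNA played was not tested.

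Genes of the 2-cell-like state were higher as a group. All 24 tested members of the list had positive log2 fold changes, 10 were called and the median was 0.68. Without replicate 1 only 1 of these calls was left, Zscan4a, while 6 features of the list were called without replicate 2 and 12 without replicate 3. DESeq2 called 3 features of the list with the replicate block and 0 without it. By pair the medians were 0.76, 0.74 and 0.25, with 23, 24 and 19 of the 24 members higher, so the third pair showed the smallest difference. The list holds genes already known to be higher in these libraries, and its direction is a description. Zscan4 genes encode zinc finger and SCAN domain proteins of the 2-cell embryo, and Usp17l genes encode deubiquitinases of a recently amplified family. Copies within each family are near-identical, and reads that mapped to several places were kept, so which copy was transcribed is uncertain.

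Zscan4a (chromosome 7, 10794242 to 10799057, minus strand) was 15.2, 8.98 and 8.93 CPM in Ctrl and 25.7, 15.8 and 12 CPM in dPOLE4. Each pair rose, but the groups overlapped, since the first Ctrl library lay above the third dPOLE4 library (log2 fold change 0.68 ± 0.10, adjusted p = 5.99e-05, edgeR). Zscan4e, at 11.6, 7.99 and 11.1 CPM in Ctrl and 22.9, 13.7 and 13.9 CPM in dPOLE4, did not overlap (0.70 ± 0.11, adjusted p = 0.00014). Summed over its 9 tested genes and pseudogenes, of which 6 were called (2 without replicate 1) and all were higher, the Zscan4 family took 59.1 to 94.9 CPM in Ctrl and 88.3 to 169.6 CPM in dPOLE4.

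Usp17le was 7.49, 5.75 and 6.35 CPM in Ctrl and 14.5, 10.4 and 7.71 CPM in dPOLE4 (0.71 ± 0.13, adjusted p = 0.000656, edgeR), with no overlap. Gm12794, a further gene of the 2-cell-like list, was 3.84, 2.52 and 3.13 CPM in Ctrl and 6.55, 6.67 and 4.12 CPM in dPOLE4 (0.85 ± 0.17, adjusted p = 0.00226). Again the third dPOLE4 library was the lowest of its group in both. Without replicate 1, Usp17la, Usp17le, Gm12794, Gm4340, Gm20767, Tmem92, Zscan4b, Zscan4c and Zscan4e lost their calls, and the number of higher features fell from 79 to 44.

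Duxf3, the factor that opens the 2-cell program, was detected at 0.50 ± 0.07 CPM in Ctrl and 1.20 ± 0.57 CPM in dPOLE4 (1.19, adjusted p = 0.0296, edgeR). The endogenous retrovirus MERVL, whose LTR MT2_Mm drives many 2-cell transcripts, was 797 ± 32.4 CPM in Ctrl and 1000 ± 198 CPM in dPOLE4 over the internal part MERVL-int (0.31, adjusted p = 0.00493), under the fold threshold. MT2_Mm had a log2 fold change of 0.25 (adjusted p = 0.0191). Of all repeats, grouped by patterns in their names since the table gives no class, LTR subfamilies had a median of 0.04 over 509 tested, LINE subfamilies -0.01 over 137 and SINE subfamilies 0.03 over 35, with 0 called by edgeR in each class and 69, 4 and 4 at an unadjusted p below 0.05.

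**Figure D3:**
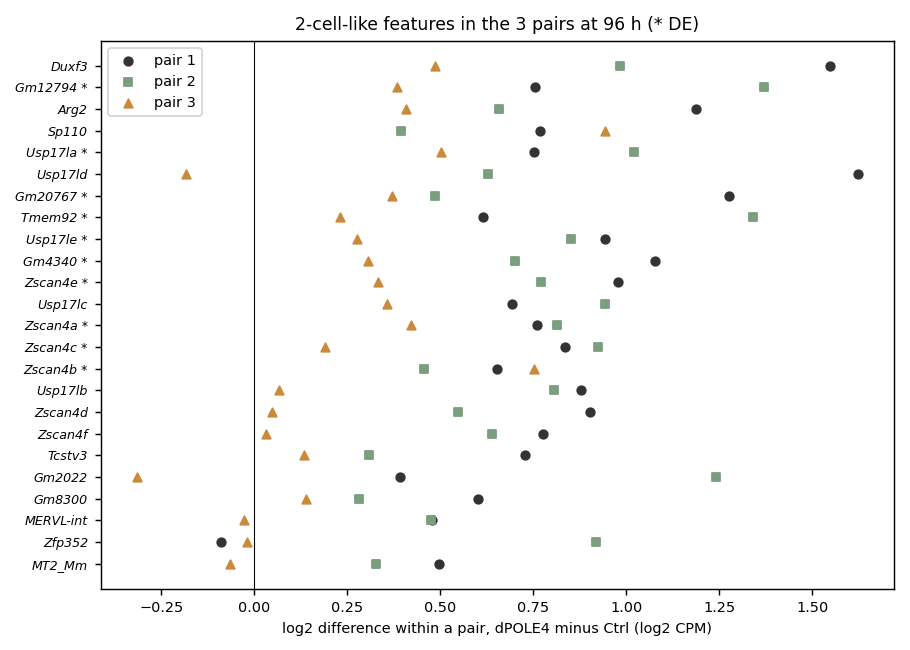
Log2 difference in CPM of dPOLE4 over Ctrl (horizontal axis) for the 24 tested 2-cell-like features (vertical axis, called ones starred), with circles, squares and triangles for pairs 1, 2 and 3. The medians of the first 2 pairs, 0.76 and 0.74, lie well above that of the third, 0.25.

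Pramel6 and Pramel7 encode leucine-rich repeat proteins of the PRAME family that are typical of naive and early embryonic cells. Pramel6 (chromosome 2, 87506565 to 87510872, plus strand) was 9.11, 8.54 and 9.02 CPM in Ctrl and 17.0, 16.1 and 11.6 CPM in dPOLE4 (0.72 ± 0.11, adjusted p = 0.000119, edgeR). Pramel7 was 5.66, 6.35 and 5.63 CPM in Ctrl and 11.4, 9.36 and 7.87 CPM in dPOLE4 (0.69 ± 0.13, adjusted p = 0.000889, not called without replicate 1). Neither overlapped, the Ctrl libraries lay close together, and the third dPOLE4 library was the lowest of its group for both genes. The family of 7 tested genes had a median of 0.26 with 6 higher.

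Genes tied to germ cells were higher in part. Stra8, which retinoic acid induces before meiosis, was 12.5, 17.2 and 11.7 CPM in Ctrl and 21.1, 26.8 and 16.8 CPM in dPOLE4. It rose in each pair with overlapping groups, because the third dPOLE4 library was just below the second Ctrl library (0.64 ± 0.09, adjusted p = 2.87e-05, edgeR). Of the 13 other tested retinoid genes 2 were higher, 0 were called, 4 had an unadjusted p below 0.05 in edgeR, and the median log2 fold change was -0.19. Of 26 germline genes, 19 were higher with a median of 0.14, and Dpep3, a dipeptidase gene of the testis, was called at 0.64, 0.60 and 0.25 CPM in Ctrl and 1.84, 1.09 and 1.16 CPM in dPOLE4 (1.47 ± 0.34, adjusted p = 0.00679). That level is close to the detection limit, and the call was lost without replicate 1 or replicate 3.

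Other higher genes shared no list. Cacna1s, the calcium channel subunit of skeletal muscle, was 4.53, 2.74 and 3.81 CPM in Ctrl and 9.60, 8.84 and 6.92 CPM in dPOLE4 (1.19 ± 0.15, adjusted p = 1.57e-05, edgeR). Ptprv, a receptor-type phosphatase gene, was 13.8, 13.7 and 13.3 CPM in Ctrl and 22.6, 23.1 and 20.8 CPM in dPOLE4 (0.70 ± 0.08, adjusted p = 6.13e-06). Mst1, which encodes a macrophage-stimulating growth factor, was 1.51 ± 0.32 CPM in Ctrl and 3.37 ± 0.96 CPM in dPOLE4 (1.14). Groups of all 3 were apart.

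Msln, Nfam1 and Cdkn2a, also higher, were named after their values were seen. Msln, the mesothelin gene, was 6.35, 6.51 and 6.18 CPM in Ctrl and 10.9, 10.6 and 12 CPM in dPOLE4 (0.82 ± 0.11, adjusted p = 4.38e-05, edgeR), so that the groups were wide apart. Cdkn2a, a cell cycle inhibitor locus, was 5.75 ± 1.27 CPM in Ctrl and 8.68 ± 0.52 CPM in dPOLE4 (0.61) and lost its call without replicate 1 or replicate 3, and Nfam1, an immune receptor gene, had a log2 fold change of 1.02 and lost its call without replicate 1. Of 29 tested p53 targets 20 were higher with a median of 0.11, 0 called and 14 at an unadjusted p below 0.05 in edgeR, and Cdkn1a, the p21 gene, was 47.2 ± 5.35 CPM in Ctrl and 57.2 ± 6.01 CPM in dPOLE4 (0.28).

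A few higher features were set by 1 library. Lars2, a mitochondrial leucyl-tRNA synthetase gene, was 31.3, 125 and 51.7 CPM in Ctrl and 16.7, 929 and 105 CPM in dPOLE4, and Mir6236 was 2.66, 13.9 and 0.55 CPM in Ctrl and 0.44, 174 and 19.9 CPM in dPOLE4. In both, replicate 2 of dPOLE4 was far above all others and the first pair went the other way. Gm24270 and Gm15564 had the same pattern, reaching 51.8 and 33.6 CPM in that library. Of the 142 features, 7 had pairs that disagreed in direction, these 4 included, and their calls are given with that limit. Gm10259, a called lower feature, was 0, 14.45 and 6.01 CPM in Ctrl and 0, 0 and 3.75 CPM in dPOLE4 (log2 fold change -2.455). Its first pair, at 0 in both libraries, shows no direction and is not counted in the 7.

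**Figure D4:**
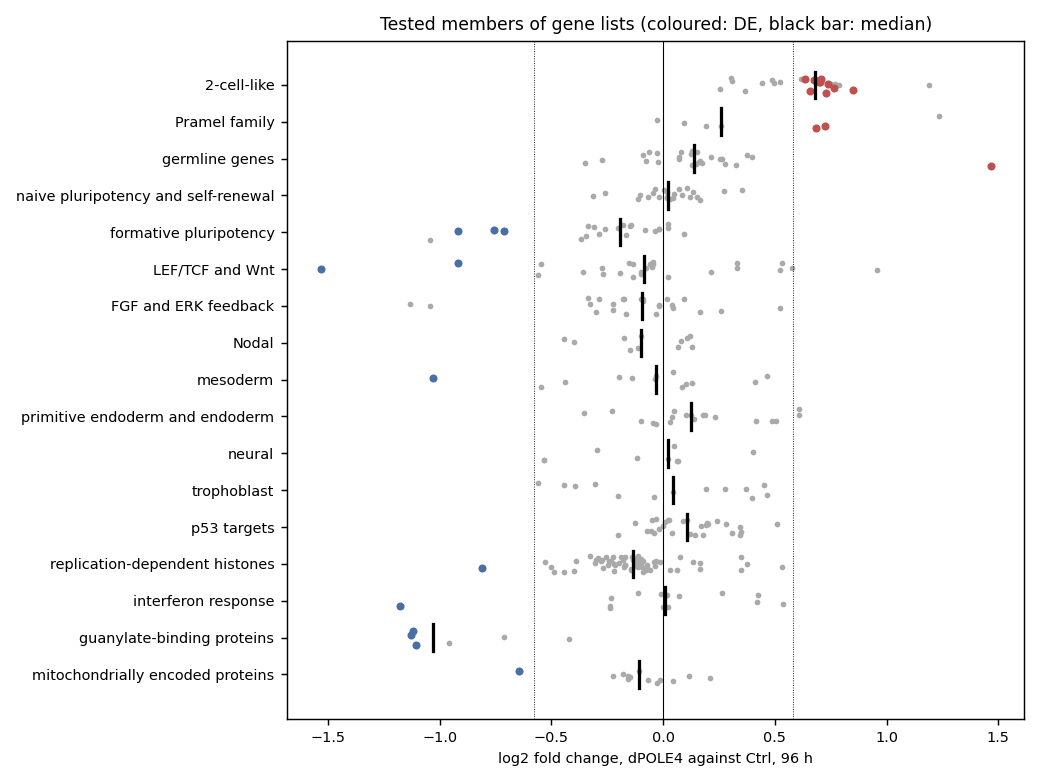
Log2 fold change of dPOLE4 over Ctrl at 96 h (horizontal axis) for each tested member of 17 gene lists (one line of points per list), with called members in red or blue, others in grey, a black bar at the list median and dotted lines at the fold threshold. The 2-cell-like points all lie to the right of 0 around a median of 0.68 and the guanylate-binding proteins all to the left around -1.03, while the naive pluripotency list centres on 0.02.

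The 142 features were then followed in libraries that the comparison did not use, each set with controls of its own. The 96 h counts of both lines carry the label batch2, which the 24 h counts lack. In the same line after 24 h of dTAG, 6 of 17792 features were called (0.0337%), 2 higher (0.0112%) and 4 lower (0.0225%). That count was 15 without replicate 1 of the 24 h libraries and 45 without replicate 2, 42 of them lower. The higher features were higher there in 57 of the 76 tested (75.0%), beside 50.1% of all features, and the lower features were lower in 57 of 62 (91.9%), beside 49.9%. One feature was called in the same direction, mt-Atp8, and 1 in the opposite direction, Gm24270. Lef1 had a log2 fold change of -0.43 at 24 h (adjusted p = 0.0426, edgeR), Igfbp3 of -0.36 (adjusted p = 0.00622), Pou3f1 of 0.02 and Zscan4a of 0.20.

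A test of the difference between the effects at 96 h and 24 h called 7 features of 18546 (0.0377%, with 3 without replicate 2 and 15 without replicate 3 of the 96 h libraries), of which Gbp2, Gbp2b and Gm24270 were described above. Gbp2 differed by -1.06 between 96 h and 24 h (adjusted p = 0.000416, edgeR interaction) and Gbp2b by -0.91 (adjusted p = 0.00448). Without the threshold on the adjusted p, 104 of the 142 features had an unadjusted p below 0.05, beside 10.3% of all features, in a test that used the same 96 h libraries. Time and batch label are the same split here and cannot be told apart.

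In the MCM2-2A line, whose MCM2 carries a mutation in its histone-binding domain, dTAG for 96 h, under the same batch label, gave 307 called features of 17421 (1.76%), 218 higher (1.25%) and 89 lower (0.511%). Of the 79 higher features of the wild-type line, 71 of 74 tested were higher there (95.9%, beside 49.9% of all features) with a median log2 fold change of 0.61, 35 were called higher and 0 lower. Of the 63 lower features, 56 of 61 were lower (91.8%, beside 50.1%) with a median of -0.56, 20 were called lower and 0 higher. The shared higher features were 44.3% of the wild-type list and 16.1% of the MCM2-2A list, and the shared lower ones 31.7% and 22.5%. Without replicate 1 of the wild-type line the 55 shared features fell to 28, 8 of them higher and 20 lower. After 24 h in MCM2-2A, where 143 of 18171 features were called (0.787%, 0.473% higher and 0.314% lower), 73 of 77 higher features were higher (94.8%, beside 51.1%) and 46 of 61 lower ones were lower (75.4%, beside 48.9%), with 13 and 6 called. The 143 became 25 without replicate 2 and 250 without replicate 3 of those libraries. Each background is a single line, so line and mutation cannot be told apart.

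Pou3f1, Lef1, Sp5, T, Enpp2, Vrtn and Cacna1s were called in both backgrounds. Pou3f1 was 0.76 lower on the log2 scale in each. Lef1 had a log2 fold change of -1.39 ± 0.11 in MCM2-2A (adjusted p = 1.58e-09, edgeR), Sp5 of -1.15, T of -1.20, Enpp2 of -1.25, Vrtn of -1.42 and Cacna1s of 1.27. For Lef1 the difference between the backgrounds was -0.47 ± 0.13 (SE, unadjusted p = 0.0017, adjusted p = 0.156, edgeR interaction), and for Sp5 it was 0.39 (adjusted p = 0.816).

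Other genes were called in the wild-type line alone. Igfbp3 had a log2 fold change of -0.25 in MCM2-2A, a difference of 0.68 between the lines that missed the threshold (adjusted p = 0.0155, edgeR interaction). For Gbp2 the value was -0.56 and the difference 0.56 (adjusted p = 0.342), and for Wnt5a -0.01 and 1.08 (adjusted p = 0.157). Mitochondrial mt-Rnr2 stood at -0.20 in MCM2-2A, with a difference of 0.47 (adjusted p = 0.301). None of these differences passed.

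In the 2-cell-like list 21 of 24 features were called higher in MCM2-2A, with a median of 1.29 beside 0.68 in the wild-type line and 0.20 at 24 h. Zscan4a reached 1.32 ± 0.09 in MCM2-2A, and its difference from the wild-type line was 0.65 (adjusted p = 0.0325, edgeR interaction). For MERVL-int the difference was 0.70 (adjusted p = 0.000429) and for MT2_Mm 0.69 (adjusted p = 0.000429), and both passed. Formative genes had a median of -0.32 there, with 6 of 22 called lower, beside -0.19 in the wild-type line and -0.03 at 24 h. The test of the difference between backgrounds called 10 of 18555 features (0.0539%, with 16 without replicate 3 of the wild-type line), and 3 of the 142 had an adjusted p below 0.01 in it. At an unadjusted p below 0.05 there were 65 of the 142, beside 9.84% of all features, in a test that used the same wild-type libraries that chose the 142.

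**Figure D5:**
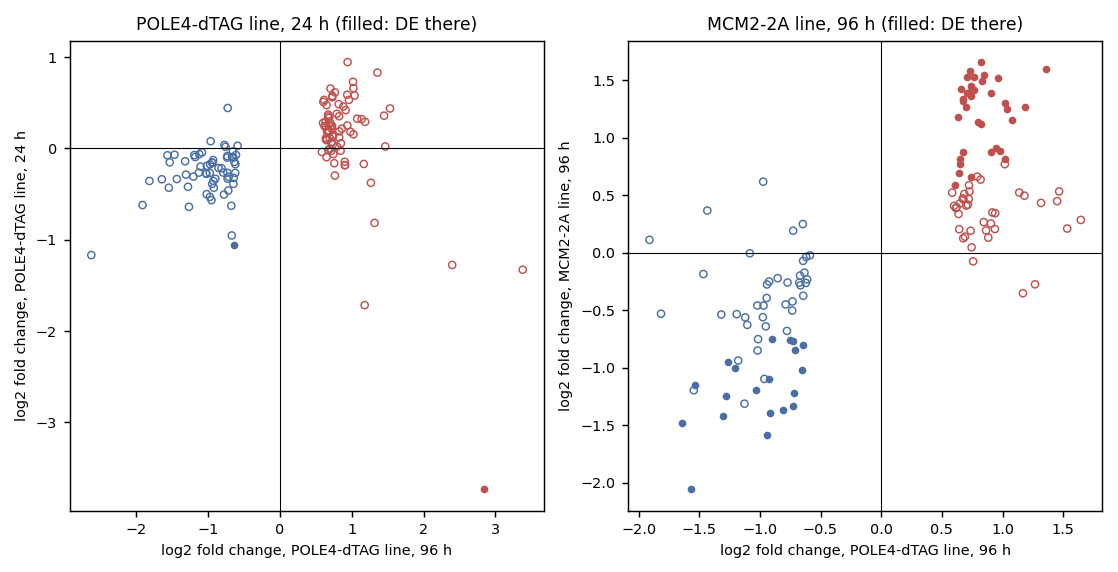
Log2 fold change at 96 h in the wild-type line (horizontal axis) against that at 24 h in the same line (left) and at 96 h in MCM2-2A (right, vertical axes) for the 142 features called at 96 h, with higher features in red, lower in blue and points filled where the other comparison called them too. On the right 71 of 74 higher and 56 of 61 lower features lie on the same side of 0 as in the wild-type line, and on the left the points lie closer to 0.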

How the data were processed

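RNA was measured in 6 libraries of the 96 h comparison, and 18 further libraries (24 h and MCM2-2A, 3 per group) were used for comparison. Per the labels and the methods, the authors trimmed reads with cutadapt 4.2, aligned them to mm10 (GRCm38) with STAR keeping multi-mapping reads, and deposited raw counts per gene and repeat subfamily. Gene names came from GENCODE annotation of the same build. Low counts were removed by filterByExpr at its defaults of 10 per library and 15 in total, and the rest were scaled by TMM and tested with edgeR 4.0.16 (glmQLFit, glmQLFTest, R 4.3.3), with Benjamini-Hochberg adjustment over all tested features. DESeq2 1.42.0 and limma 3.58.1 served as alternatives. Levels are CPM from TMM-scaled totals, and SDs are over 3 libraries. The SE of a log2 fold change was derived from the F value of the edgeR fit, which shares variance across features. It is not the spread of the 3 pairs.

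The replicate number was a block, as same-numbered libraries deviated together (r = 0.379, 0.187 and 0.191 over 17580 features, all above 0.1, against -0.224 to 0.0541 for other pairs of numbers). The members, gene lists and tests were chosen with earlier results of these data known. Named genes were Pole4, Mcm2, Lef1, Pou3f1, Pramel6, the 12 called features of largest fold change and 6 of largest CPM difference per direction with 3 agreeing pairs and at least 1 CPM, called list members, and up to 4 members of lists with fewer than 2 calls. Genes outside this rule, among them Gbp2, Gbp2b, Gbp3, H2-Q4, the semaphorins, Lars2, Mir6236, Gm24270 and Gm15564, and the individual uncalled list members, were named after their values were seen. The lists of guanylate-binding proteins, antigen presentation, Zscan4 and Usp17l families, mitochondrial ribosomal and transfer RNA and small nucleolar RNA were also formed then. Scripts were tested on simulated data.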

Additional observations from a re-analysis of the deposited data

Results flagged for a closer look

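The effect of 7 features differed between 96 h and 24 h of dTAG in the wild-type line by the edgeR interaction test (96 h minus 24 h, log2 scale): Nes by -0.63, Gbp2 by -1.06, Gbp2b by -0.91, Pcdh1 by -0.63, Gm24270 by 6.58, Gm15564 by 3.64 and Gm24187 by 5.87. Without replicate 2 of the 96 h libraries, 0 features with a positive difference were called. In replicate 2 of dPOLE4 at 96 h Gm24270 reached 51.8 CPM and Gm15564 33.6 CPM. The 96 h log2 fold changes of these genes, 2.84 and 2.40, are smaller than their differences. The 24 h libraries, where Gm24270 was called lower, thus contribute too.

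The effect of 10 features differed between MCM2-2A and the wild-type line at 96 h (MCM2-2A minus wild type). Krt18 differed by 0.69, Flnc by 0.61, MERVL-int by 0.70 and MT2_Mm by 0.69, while Hist2h2aa2 differed by -0.94 and MMERGLN-int by -0.94. Gm24270 differed by -2.16 and Mir6236 by -2.90. Tmem254b differed by -13.21 and Gm10259 by 11.98, sizes that arise where a group is at or near 0 counts and that are no measure of a fold.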

How the results depend on the processing

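The count of 142 features at 96 h depended on the pairing: without the replicate block edgeR called 0 (2164 at an unadjusted p below 0.05), DESeq2 32 with and 25 without the block, and limma-voom, added after seeing the data, 134 with and 0 without. DESeq2 with the block gave no adjusted p for 52 of the 142. No filter gave 236, no fold threshold 696 and glmTreat against 1.5-fold 5. Leaving out a replicate number gave 113 to 151. The other settings (DESeq2 size factors, TMM from genes, a stricter filter, robust estimation and all 4 groups) gave 131 to 164, and the sign of every called feature tested held under all settings. Repeat subfamilies, 0 called, gave 1 with no filter and 2 each without replicate 2 or 3. Without the block 24 h gave 0 instead of 6, MCM2-2A 53 instead of 307 at 96 h and 13 instead of 143 at 24 h, the difference between times 0 instead of 7 (942 at an unadjusted p below 0.05) and that between lines 0 instead of 10 (686). Leaving out a replicate gave 6 to 45 at 24 h, 283 to 310 and 25 to 250 for MCM2-2A at 96 h and 24 h, 3 to 15 and 9 to 16 for the differences. The 55 features shared with MCM2-2A ranged from 28 to 62 with a replicate of either line left out, and were 14 with DESeq2 and 22 without the block in MCM2-2A (both added after seeing the data). Pole4 (-0.11) ran from -0.1931 to 0.03199 and Mcm2 (0.01) from -0.01293 to 0.02185 with a replicate left out, both with the other sign without replicate 2, and Mcm2 was -0.003073 with all 4 groups. The causes were not tested. Without replicate 2, Psmb8, Sema3e, Insm1, Hist1h2ba, Zscan4c, Usp17la, Gm12794, Tmem92 and Lars2 lost their calls, and without replicate 3, Has2, Sema6a, mt-Rnr2, mt-Atp8, Zscan4b, Dpep3 and Cdkn2a did. Genes at 1 to 10 CPM rest on few counts at this depth.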
